A study of Mus musculus with 12 samples.

Results

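Levels of 37 genes of the p53 pathway and of the apoptosis machinery were compared between cloned and fertilised mouse morulae. The genes were chosen by name and by role: p53 and its regulators (3 genes), p53 target genes (12), BH3-only proteins (8), Bcl2 family effectors (3), the anti-apoptotic Bcl2 family (4), the apoptosome with the inhibitors of apoptosis (5), and caspases with the death receptor Fas (6). Pmaip1 and Bbc3 stood among both the targets and the BH3-only proteins, Bax among both the targets and the effectors, and Fas among both the targets and the last list. On the array 36 of the 37 had a probe (Bok had none), and 32 could be tested, out of 19038 features tested in all. Each of the 12 single-colour arrays held amplified RNA of 1 whole (C57BL/6 x DBA/2) F1 morula, the compacted stage before the blastocyst, after 72 h of culture. The classes were 4 siXist clones, 4 siCont clones and 4 IVF embryos. Clones were male embryos made by transfer of Sertoli cell nuclei (somatic cells that support sperm development in the testis), injected between 6 and 7 h after activation with siRNA against Xist, the RNA that silences an X chromosome, or with control siRNA. IVF embryos were fertilised in vitro and not treated. Of these, embryos 1 and 3 were male and embryos 2 and 4 female.

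p53, encoded by Trp53, is a transcription factor that accumulates after DNA damage and other stress and switches on genes for cell cycle arrest, DNA repair and death. Mdm2, itself a target, marks p53 for degradation and so closes a feedback loop. In the mitochondrial route to death, BH3-only proteins relieve Bcl2, Mcl1 and their relatives of the effectors Bax and Bak1, which then open the outer mitochondrial membrane. Released cytochrome c joins Apaf1 to form the apoptosome, which activates caspase 9. Apoptosis is a known feature of preimplantation embryos, mostly from the blastocyst stage onwards.

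Levels are log2 signals relative to the 75th percentile of the array, listed for embryos 1 to 4 of a class, and are not comparable between probes. Differences between classes come from a limma fit to all 12 arrays with its SE, and adjusted p-values are Benjamini-Hochberg values over all features tested. A gene is represented by its brightest probe unless another is named. The share of probes above background ran from 50.7% to 61.4% between arrays. Each class had a slide and a scan of its own, so class, slide and scan cannot be told apart. With 1 embryo per array, fewer cells of a type and less RNA per cell cannot be told apart either, and the p-values measure the spread between these embryos. Xist, which checks the labels, averaged 1.93 ± 0.48 in siXist clones and 4.97 ± 0.48 in siCont clones (SD, n = 4 each), with no overlap, a difference of -3.04 ± 0.48 (SE, adjusted p = 0.11). Of the morula markers, 6 or 7 of the 7 with a probe were above background in every embryo, with summed linear levels of 146 to 252 in siXist clones, 159 to 267 in siCont clones and 169 to 230 in IVF embryos. Of the 9 Sertoli markers with a probe, 5 to 8 were above background in a siXist clone, 4 to 6 in a siCont clone and 5 to 6 in an IVF embryo. Amh was above background in no embryo, Wt1 in no siCont clone or IVF embryo, and Cldn11 in no IVF embryo. Cumulus markers (7) summed to 0.0513 to 0.561 in siXist clones, 0.0774 to 1.94 in siCont clones and 0.0416 to 0.121 in IVF embryos, with 2 to 3, 2 to 3 and 0 to 2 of them above background in an embryo. The part of these markers in the results below was not tested.

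For most p53 target genes the mean level was higher in clones than in IVF embryos, except in the authors' deposited table for siCont clones (described below), and no single gene passed the test. In siCont clones against IVF embryos, 11 of the 12 targets had a positive difference, with a median of 1.02 on the log2 scale, beside 48.1% of all features and a median of -0.04. In siXist clones against IVF embryos, 10 of the 12 were positive with a median of 0.82, beside 38.3% of all features and a median of -0.23. Both comparisons share the IVF embryos. Fas passed the filter on dim probes through the siXist clones alone, and without it 10 of 11 targets were positive for siCont clones (median 0.88) and 9 of 11 for siXist clones (median 0.76). Over the whole set, limma called 0 of 32 members in either comparison, where it called 0.415% of all features for siCont clones and 0.578% for siXist clones. At an unadjusted p under 0.05, 7 members were higher in siCont clones and none lower, a share to set beside 13.6% of all features. In siXist clones 2 were higher and 1 lower, beside 13.9% of all features. Classes did not overlap, with siCont clones higher, for 4 members (5.53% of all features) and with siCont clones lower for 0 members (4.79% of all features). For siXist clones against IVF embryos these counts were 1 higher (3.48% of all features) and 0 lower (9.58% of all features).

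Zero on this scale depends on how arrays are scaled. In the authors' deposited table, whose constant per array is of unknown basis, the median difference of all features for siCont clones minus IVF was -1.13, and 6 of the 12 targets were positive with a list median of -0.07. Relative to the median of all features, the list median was 1.06 in both scalings for siCont clones, and 11 of the 12 targets lay above it in the deposited table. Over all 26 alternative settings the targets' median lay 0.86 to 1.26 above that of all features for siCont clones. For siXist clones it lay 0.70 to 1.36 above. At least 10 targets lay above in every setting, of 12 tested, or of 11 in a setting that lost a target. Fas is counted in these ranges, which were not recomputed without it.

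**Figure D1:**
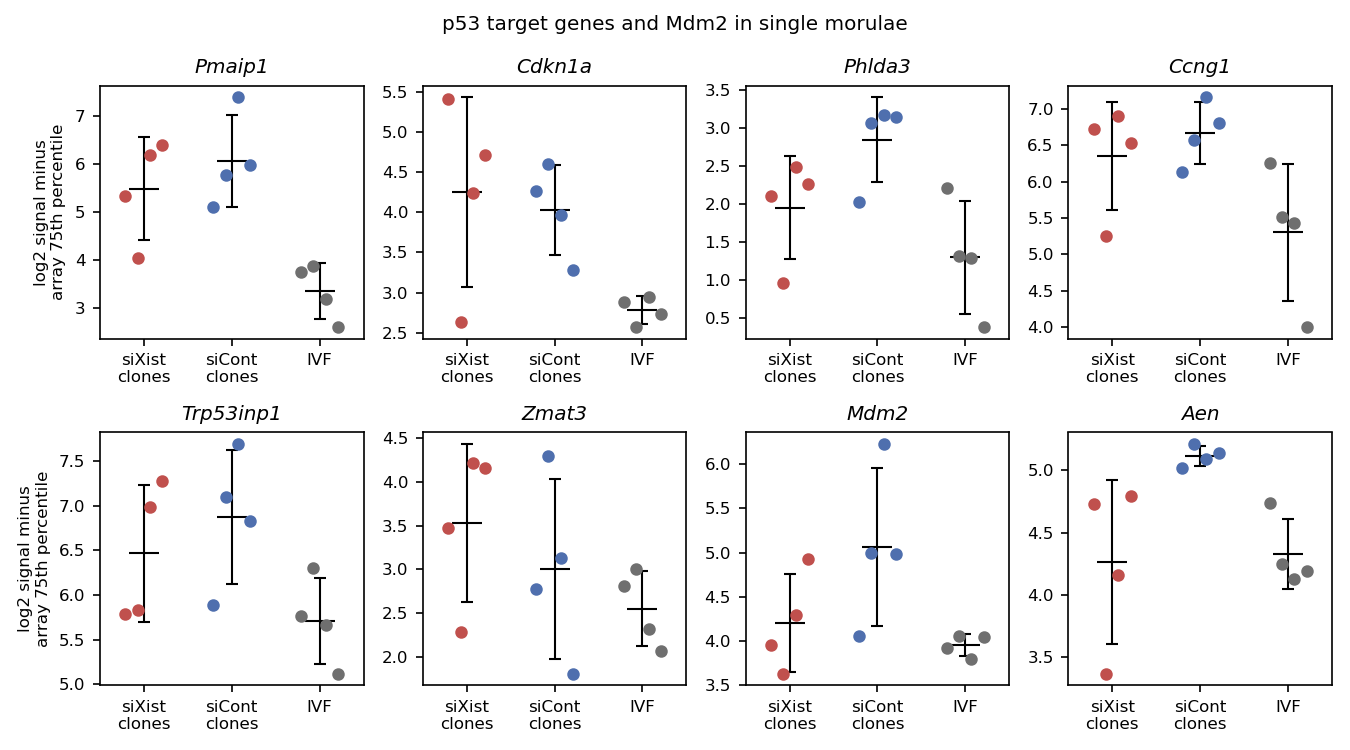
Level of 7 p53 target genes and of Mdm2 in each embryo (points, log2 signal minus the array's 75th percentile), by class, with the class mean (long bar) and SD (whiskers). For Pmaip1 every siXist and siCont clone lies above the highest IVF embryo at 3.89; siXist clone 2 is the lowest of its class in all 8 panels except that of Trp53inp1.

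Pmaip1 (Noxa), a BH3-only protein that neutralises Mcl1, had the smallest p of the members in both comparisons with IVF embryos. It lay at 5.33, 4.04, 6.20 and 6.40 in siXist clones, at 5.11, 5.77, 7.39 and 5.98 in siCont clones, and at 3.75, 3.89, 3.19 and 2.61 in IVF embryos. All clones were above all IVF embryos, siXist clone 2 by the smallest margin. The difference from IVF was 2.70 ± 0.64 for siCont clones (6.51-fold, adjusted p = 0.121) and 2.13 ± 0.64 for siXist clones (4.38-fold, adjusted p = 0.196). It stayed between 1.60 and 3.02 and between 1.81 and 2.61 over the alternative settings, with adjusted p from 0.09 to 0.37 and from 0.119 to 0.575.

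Cdkn1a encodes p21, the cyclin-dependent kinase inhibitor through which p53 halts the cell cycle. Its levels were 5.41, 2.63, 4.24 and 4.71 in siXist clones, 4.26, 4.60, 3.96 and 3.28 in siCont clones, and 2.88, 2.57, 2.95 and 2.73 in IVF embryos. The siCont clones did not overlap with IVF embryos, while siXist clone 2 lay among them. Differences from IVF were 1.24 ± 0.55 for siCont clones (2.37-fold, adjusted p = 0.366) and 1.46 ± 0.55 for siXist clones (2.76-fold, adjusted p = 0.282).

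Ccng1 encodes cyclin G1, which recruits a phosphatase to Mdm2. It lay at 6.72, 5.26, 6.90 and 6.54 in siXist clones, at 6.14, 6.58, 7.16 and 6.81 in siCont clones, and at 6.26, 5.52, 5.43 and 4.0 in IVF embryos. IVF embryos 1 to 3 lay within the range of the clones, and siXist clone 2 and siCont clone 1 within that of the IVF embryos. Differences from IVF were 1.37 ± 0.49 for siCont clones (adjusted p = 0.272) and 1.06 ± 0.49 for siXist clones (adjusted p = 0.372). Its dimmer probe gave 1.22 and 0.26.

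Promoters of the members were searched for the p53 half-site consensus, a palindrome of 10 bases that reads alike on both strands. RefSeq windows on GRCm38.p6, from 250 bases before to 50 after an annotated start, were found for 32 of the 37 genes (45 windows). Pmaip1, Bik, Trp53inp1, Perp and Zmat3 are named only. The half-site occurred in 10 of the 45 windows (22.2%), from 9 genes, against 8.36% of all 32851 windows. Some genes have several windows, and both windows of Aen overlap and hold the same site, so that site is counted in each. Those genes were Mdm2, Trp53, Birc5, Bmf and, among targets, Cdkn1a, Ccng1, Aen, Gadd45a and Bax (5 of the 8 targets with a window). A full site of 20 bases, a pair of half-sites with no spacer and at most 1 mismatch, occurred in 0.067% of all windows and in 2 members, Ccng1 and Cdkn1a. They are shown because both encode cell cycle proteins with a positive difference in both kinds of clone. A match in these letters is a description and not evidence of binding. Because members were chosen partly as targets and regulators of p53, their share beside that of all windows is no test.
Below are the 250 bases before the start, 5′ to 3′ on the gene's strand, with the full site in capitals. For Ccng1 (GRCm38.p6, chr11:40755287-40755536, minus strand) the site begins 195 bases before the start and has 1 mismatch. For Cdkn1a (chr17:29090729-29090978, plus strand), at one of its annotated starts, it begins 51 bases before the start and has 1 mismatch. The window at the other annotated start of Cdkn1a holds neither a half-site nor a full site.
Ccng1: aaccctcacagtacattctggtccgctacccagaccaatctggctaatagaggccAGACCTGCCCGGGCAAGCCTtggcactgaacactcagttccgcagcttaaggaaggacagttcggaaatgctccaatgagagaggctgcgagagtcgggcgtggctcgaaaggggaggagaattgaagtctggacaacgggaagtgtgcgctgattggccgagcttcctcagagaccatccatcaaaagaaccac
Cdkn1a: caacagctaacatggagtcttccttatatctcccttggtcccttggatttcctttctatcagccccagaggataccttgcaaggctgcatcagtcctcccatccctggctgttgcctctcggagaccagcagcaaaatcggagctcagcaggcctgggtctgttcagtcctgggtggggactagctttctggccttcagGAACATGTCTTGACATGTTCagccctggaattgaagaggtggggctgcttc

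Phlda3, a lipid-binding inhibitor of Akt signalling, lay at 2.11, 0.96, 2.48 and 2.26 in siXist clones, at 2.02, 3.06, 3.17 and 3.14 in siCont clones, and at 2.21, 1.31, 1.29 and 0.38 in IVF embryos. Of the siCont clones 3 were above every IVF embryo and clone 1 was not. The difference from IVF was 1.55 ± 0.46 for siCont clones (2.93-fold, adjusted p = 0.205) and 0.66 ± 0.46 for siXist clones (adjusted p = 0.539).

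Trp53inp1, a p53-induced nuclear protein that takes part in stress responses and autophagy, was measured by a pair of probes that both gave positive differences from IVF. The brighter lay at 5.79, 5.83, 6.98 and 7.27 in siXist clones, at 5.89, 7.10, 7.69 and 6.83 in siCont clones, and at 5.76, 6.30, 5.66 and 5.12 in IVF embryos. The dimmer lay at -3.16, -1.92, 0.98 and 0.18 in siXist clones, at -1.74, -1.33, 2.10 and 2.26 in siCont clones, and at -3.83, -4.33, -3.56 and -3.77 in IVF embryos. On the dimmer probe all clones were above all IVF embryos. Differences from IVF were 1.17 ± 0.51 (adjusted p = 0.353) and 0.76 ± 0.51 (adjusted p = 0.527) on the brighter probe for siCont and siXist clones. On the dimmer they were 4.20 ± 1.14 for siCont clones (adjusted p = 0.179 over all probes) and 2.89 ± 1.14 for siXist clones (adjusted p = 0.313), neither past the threshold.

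On the scaling used here, the brighter probe of Aen, an exonuclease of p53-dependent apoptosis, separated the siCont clones from both other classes. Its levels were 4.73, 3.37, 4.16 and 4.79 in siXist clones, 5.02, 5.21, 5.09 and 5.14 in siCont clones, and 4.74, 4.25, 4.13 and 4.19 in IVF embryos. The siCont clones had an SD of 0.08, against 0.66 in siXist clones and 0.28 in IVF embryos. The difference was 0.79 ± 0.36 for siCont clones minus IVF (adjusted p = 0.37) and -0.06 ± 0.36 for siXist clones minus IVF (adjusted p = 0.952). For siCont clones minus IVF it ran from -0.31 to 0.94 over the alternative settings, with 1 change of sign. A dim second probe, above background on 3 siXist, 1 siCont and 1 IVF array, gave -0.58 and 1.09.

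The other targets overlapped between the classes. Fas, the death receptor, was above background on 3 siXist, 2 siCont and 1 IVF array. It ranged from -7.85 to 2.29 in siXist clones, from -6.13 to 0.66 in siCont clones and from -7.42 to -4.69 in IVF embryos, with SDs of 4.36, 3.19 and 1.26. It was kept through the siXist clones alone, and with most IVF arrays not above background no difference is read from it. Gadd45a, which acts in growth arrest and DNA repair, gave 0.60 ± 0.75 for siCont clones and 0.88 ± 0.75 for siXist clones. Zmat3, an RNA-binding zinc finger protein, gave 0.45 ± 0.60 and 0.98 ± 0.60. Perp, a desmosomal membrane protein, gave 0.88 ± 0.45 and 0.28 ± 0.49, siXist clone 1 having no usable spot. Bbc3 (Puma), a BH3-only protein, gave 0.45 ± 0.78 and 0.21 ± 0.78, its siXist levels running from 0.45 in clone 2 to 4.03 in clone 4. Bax had the only negative difference among the targets in siCont clones, at -0.37 ± 0.40, and -0.09 ± 0.40 in siXist clones.

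**Figure D2:**
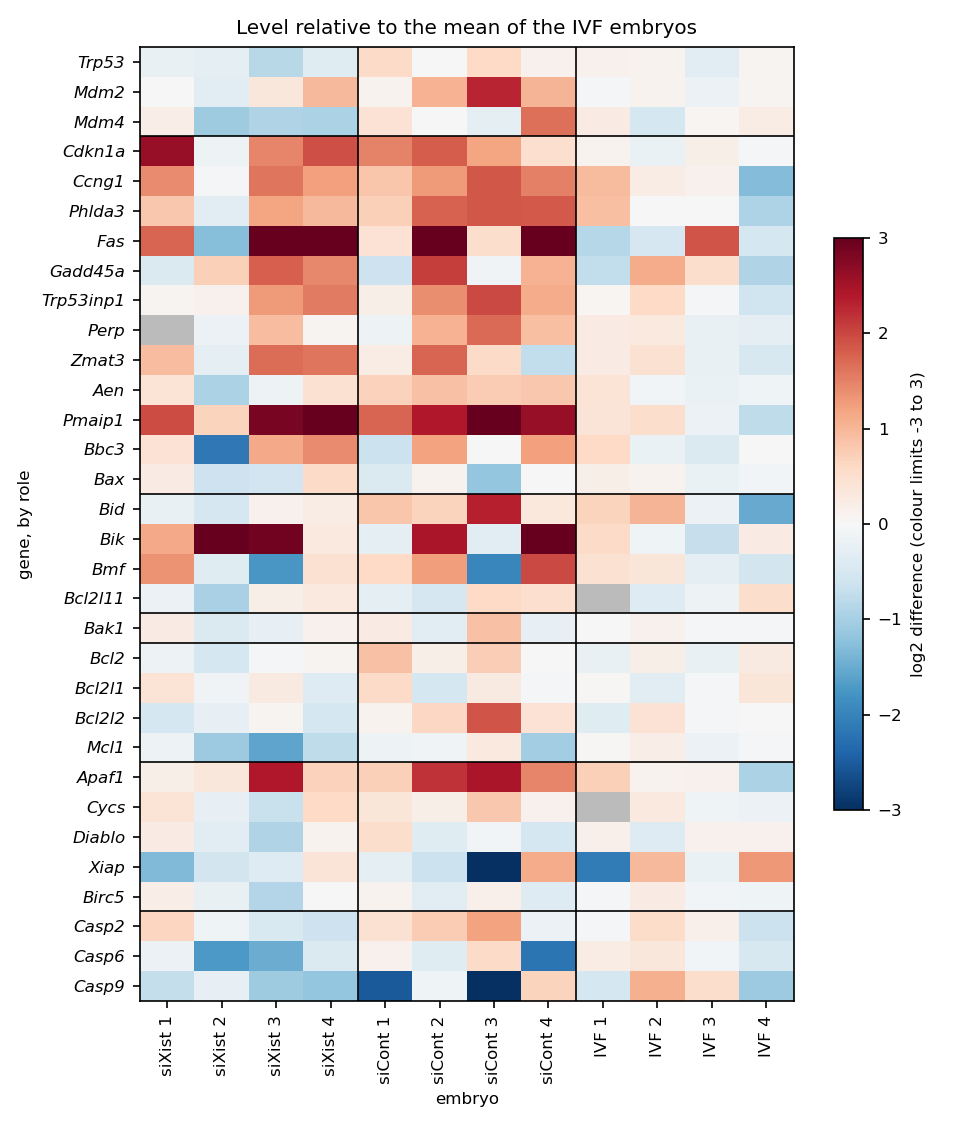
Each of the 32 tested genes (down, by role, with a line between roles) in each of the 12 embryos (across), as the log2 level minus the mean of the IVF embryos; grey squares have no usable spot, and colours stop at -3 and 3. Most targets are above the IVF mean in siXist clones 1, 3 and 4 and in the siCont clones, while siXist clone 2 is near or below it.

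The targets did not move evenly over embryos of a class. The median over the targets of the level minus the IVF mean was 0.81, -0.22, 1.37 and 1.43 in siXist clones, 0.33, 1.57, 0.97 and 1.09 in siCont clones, and 0.25, 0.17, -0.11 and -0.51 in IVF embryos. On this scaling all clones except siXist clone 2 had a higher median than every IVF embryo, siCont clone 1 by a narrow margin. Medians and counts per embryo were not computed in the deposited table. There, 6 of the 12 targets were positive for siCont clones minus IVF. In siXist clones 1 to 4, 5, 1, 10 and 11 targets lay above the whole range of the IVF embryos (11 targets measured in clone 1, 12 in the others). Of all features 24.4%, 19.6%, 20.8% and 22.2% lay above that range in the same clones. In siCont clones 1 to 4, 3, 11, 8 and 9 of the 12 targets did, beside 31.4%, 25.1%, 38.7% and 24.6% of all features. Fas, from which no difference is read, was counted: it lay above that range in siXist clones 3 and 4 and in siCont clones 2 and 4. The medians and counts per embryo were not recomputed without it. siXist clone 2 was the lowest of its class for 10 of the 12 targets, for 17 of all 32 members and for 21.6% of all features. Those 10 targets include Fas, which was not above background in that clone. siCont clone 1 was the lowest of its class for 9 targets and 17.0% of all features, and IVF embryo 4, a female, for 7 targets and 29.2%.

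**Figure D3:**
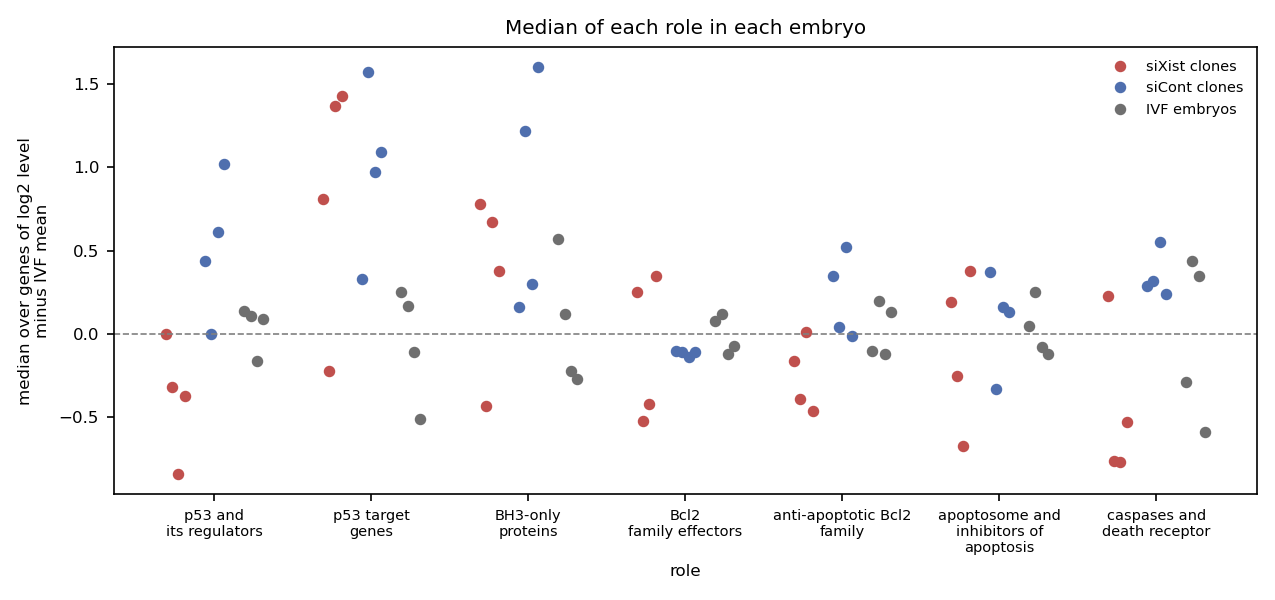
Median over the genes of each role of the log2 level minus the IVF mean, 1 point per embryo, coloured by class. For p53 target genes, 3 siXist clones and all 4 siCont clones lie above the highest IVF embryo at 0.25, and siXist clone 2 lies at -0.22; for the caspases with Fas the siXist points (up to 0.23) end just below the siCont points (from 0.24), and for each other role the siXist points overlap with the IVF points.

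Between siXist and siCont clones no member passed the test, and the sign of most differences depended on the scaling. Of 32 members 8 had a positive difference, with a median of -0.38, beside 39.8% of all features and a median of -0.21, whereas in the authors' deposited table all 32 were positive with a median of 0.76, beside a median of 0.93 for all features. limma called 0 members, where it called 0.0105% of all features. At an unadjusted p under 0.05, 0 members were higher and 4 lower in siXist clones, beside 13.9% of all features. Classes did not overlap for 4 members with siXist clones lower (6.41% of all features) and for 0 with siXist clones higher (1.62% of all features). Among the 12 targets 5 were positive with a median of -0.28, and Cdkn1a (0.22 ± 0.55, adjusted p = 0.871), Pmaip1 (-0.57 ± 0.64, adjusted p = 0.689) and Ccng1 (-0.32 ± 0.49, adjusted p = 0.777) overlapped between siXist and siCont clones. Aen had the smallest p of the targets here, with -0.85 ± 0.36 (adjusted p = 0.34) and no overlap. The sign was positive for the mean of its probes (0.41) and in the deposited values (0.28).

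**Figure D4:**
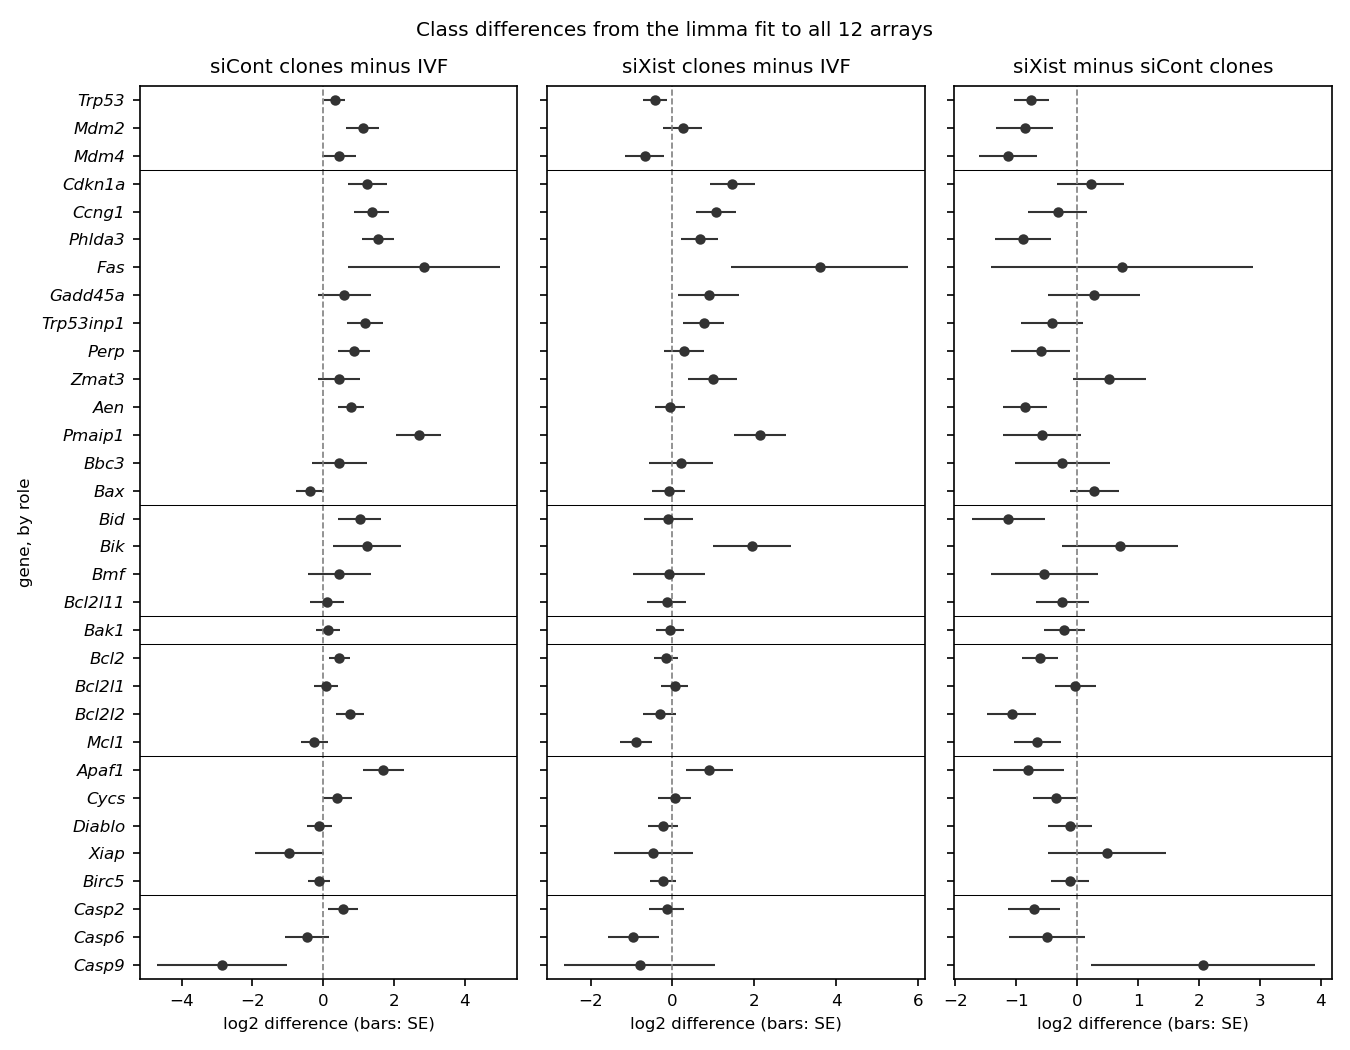
Difference between classes for each of the 32 tested genes in the limma fit (points, log2; bars are SEs), in 3 panels with scales of their own; Fas and Bik were mostly not above background in siCont clones and IVF embryos. No point passed the adjusted threshold; most p53 targets lie right of 0 in both comparisons with IVF embryos, and 24 of the 32 genes lie left of 0 for siXist minus siCont clones.

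Of p53 and its regulators, Trp53 and Mdm4 had an unadjusted p under 0.05 between siXist and siCont clones, and Mdm2 between siCont clones and IVF embryos. Trp53 was measured by a pair of probes of the same accession that went opposite ways. The brighter lay at -1.43, -1.51, -2.06 and -1.58 in siXist clones, at -0.64, -1.22, -0.61 and -1.09 in siCont clones, and at -1.08, -1.1, -1.55 and -1.13 in IVF embryos. The dimmer lay at -1.76, -1.39, -1.41 and -1.13 in siXist clones, at -2.55, -2.04, -2.78 and -2.24 in siCont clones, and at -1.76, -2.83, -2.31 and -1.80 in IVF embryos. On both probes siXist and siCont clones did not overlap, with siXist clones lower on the brighter and higher on the dimmer. The difference was -0.75 ± 0.29 on the brighter (adjusted p = 0.319) and 0.98 ± 0.34 on the dimmer (adjusted p = 0.329 over all probes). No direction for Trp53 can be given from these arrays. For siCont clones minus IVF the probes gave 0.32 and -0.23, and for siXist clones minus IVF -0.43 and 0.75.

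Mdm2, the ubiquitin ligase that targets p53, lay at 3.95, 3.63, 4.29 and 4.93 in siXist clones, at 4.05, 5.0, 6.23 and 4.98 in siCont clones, and at 3.92, 4.06, 3.79 and 4.04 in IVF embryos. siCont clones 2 to 4 were above every IVF embryo, and siCont clone 1 was level with them. The difference from IVF was 1.11 ± 0.47 for siCont clones (2.16-fold, adjusted p = 0.336) and 0.25 ± 0.47 for siXist clones (adjusted p = 0.83). Between siXist and siCont clones it was -0.86 ± 0.47 (adjusted p = 0.423). Over the alternative settings the difference of siCont clones from IVF ran from 0.01 to 1.45. A dimmer Mdm2 probe gave 0.79 for siCont and 0.55 for siXist clones minus IVF, and siCont clone 3 lay within the IVF range on it. Mdm4, a relative that blocks p53's transactivation domain, lay at 0.40, -0.84, -0.68 and -0.73 in siXist clones, at 0.66, 0.22, -0.09 and 1.87 in siCont clones, and at 0.47, -0.32, 0.28 and 0.43 in IVF embryos. siXist clones 2 to 4 were below every embryo of the other classes, and siXist clone 1 was among them. The difference between siXist and siCont clones was -1.13 ± 0.48 (adjusted p = 0.344), and 0.01 in the deposited table.

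Among the BH3-only proteins, the sensors that trigger the mitochondrial route, 6 of the 8 were tested, and Bad and Hrk were too dim (above background on 1 and 3 of 12 arrays). In siCont clones against IVF embryos all 6 had a positive difference (median 0.75), beside 48.1% of all features, but 2 of 6 did in the deposited table (median -0.35). In siXist clones against IVF embryos 3 of the 6 were positive (median 0.07), beside 38.3% of all features. In siXist against siCont clones 1 of 6 was positive (median -0.39), beside 39.8% of all features, but 6 of 6 were in the deposited table (median 0.74). Without Bik, which passed the filter through the siXist clones alone, the counts of positive genes were 5, 2 and 0 of 5. Pmaip1 and Bbc3 are described above. Bid, which links death receptors to mitochondria once cleaved, lay at 0.05, -0.21, 0.41 and 0.50 in siXist clones, at 1.11, 0.95, 2.62 and 0.59 in siCont clones, and at 0.94, 1.31, 0.12 and -1.23 in IVF embryos. siXist and siCont clones did not overlap, with a difference of -1.13 ± 0.60 (adjusted p = 0.418). Bik, first described as an interactor of Bcl2, was above background on all 4 siXist arrays, on 2 siCont arrays and on 1 IVF array. It lay at -5.22, -2.88, -3.45 and -6.05 in siXist clones, at -6.62, -3.91, -6.66 and -3.26 in siCont clones, and at -5.77, -6.47, -7.04 and -6.11 in IVF embryos. Its classes overlapped, and with most IVF arrays not above background no difference is read from it. Bmf, a sensor of lost attachment, and Bcl2l11 (Bim), an activator of Bax and Bak1, gave differences between -0.54 and 0.46 on their brightest probes. A second Bcl2l11 probe went the other way, at -0.88 for siCont minus IVF, 0.02 for siXist minus IVF and 0.91 for siXist minus siCont.

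**Figure D5:**
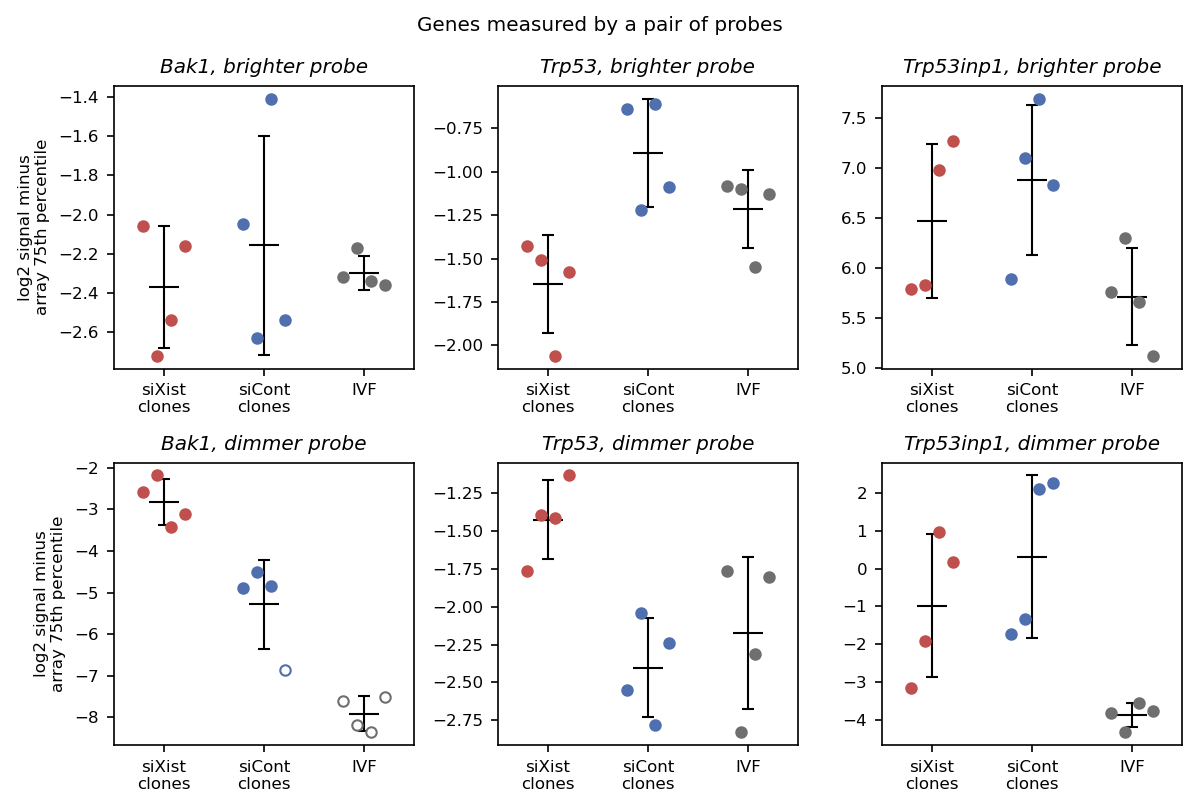
Levels by class for Bak1, Trp53 and Trp53inp1 on the brighter (top) and dimmer (bottom) probe, 1 point per embryo, with mean and SD; open points are not well above background, and each panel has its own scale. On the dimmer Bak1 probe the siXist clones lie between -3.43 and -2.18, above the siCont clones (-6.87 to -4.51) and the IVF embryos (-8.36 to -7.51), while the brighter probe overlaps in all classes.

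Bak1, the partner of Bax in opening the outer membrane, held the only call within the set, on its dimmer probe alone. That probe lay at -2.59, -2.18, -3.43 and -3.1 in siXist clones, at -4.90, -4.51, -4.84 and -6.87 in siCont clones, and at -7.60, -8.18, -8.36 and -7.51 in IVF embryos. It was above background in all 4 siXist clones, in 3 siCont clones and in 0 IVF embryos, and the 3 classes did not overlap. Since it was not well above background in any IVF embryo, the level in siXist clones is given as at least 9.03-fold higher. That bound rests on the lowest signal above background on each IVF array and holds for the processed signal without an offset: under normexp with an offset of 50 the log2 difference was 1.43. The measured means were -2.82 in siXist clones and -7.91 in IVF embryos, with an adjusted p of 0.00555 in the limma fit to every kept probe, which called 0.507% of 24832 probes. The probe passed the filter through the clones only, and it was singled out after its values were seen, so this p is a description. With no filter on probes the adjusted p was 0.00546. For siCont clones minus IVF the level was at least 1.65-fold higher on the same signal (adjusted p = 0.0911), and under normexp the log2 difference was 0.53. Over 23 alternative settings this adjusted p ran from 0.0219 to 0.388. It was under 0.05 only without siCont clone 4, the siCont clone not above background. For siXist minus siCont clones the difference was 2.46 (adjusted p = 0.252).

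The brighter Bak1 probe, of the same accession, showed none of this. It lay at -2.06, -2.72, -2.54 and -2.16 in siXist clones, at -2.05, -2.63, -1.41 and -2.54 in siCont clones, and at -2.32, -2.17, -2.34 and -2.36 in IVF embryos. The classes overlapped, with a difference of -0.07 ± 0.34 for siXist clones minus IVF (adjusted p = 0.938). The files do not say which part of the transcript each probe reads. Bax, the other effector tested, gave 0.28 ± 0.40 for siXist minus siCont clones (adjusted p = 0.761).

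The anti-apoptotic proteins, which hold the effectors in check, gave counts that depended on the scaling. In siCont clones against IVF embryos 3 of 4 had a positive difference (median 0.26), beside 48.1% of all features, and 0 of 4 in the deposited table (median -0.83). In siXist clones against IVF embryos 1 of 4 did (median -0.24), beside 38.3% of all features. In siXist against siCont clones 0 of 4 did (median -0.63), beside 39.8% of all features, and 4 of 4 in the deposited table (median 0.50). Mcl1, a short-lived guardian bound by Pmaip1, lay at 5.84, 4.91, 4.41 and 5.24 in siXist clones, at 5.85, 5.90, 6.29 and 4.97 in siCont clones, and at 6.02, 6.21, 5.82 and 5.95 in IVF embryos. siXist clones 2 to 4 were below every IVF embryo, clone 1 was not, and the difference was -0.90 ± 0.39 (adjusted p = 0.348). A second Mcl1 probe gave -0.12. Bcl2l2 (Bcl-w) lay at -0.32, -0.03, 0.28 and -0.32 in siXist clones, at 0.32, 0.84, 2.09 and 0.65 in siCont clones, and at -0.15, 0.64, 0.16 and 0.20 in IVF embryos. siXist and siCont clones did not overlap, by a narrow margin, with a difference of -1.07 ± 0.40 (adjusted p = 0.313) that was 0.06 in the deposited table. Bcl2, the founding member, gave 0.45, -0.16 and -0.61 for siCont minus IVF, siXist minus IVF and siXist minus siCont, and Bcl2l1 (Bcl-x) gave 0.08, 0.05 and -0.03.

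In the apoptosome and the inhibitors of apoptosis, Apaf1 alone had an unadjusted p under 0.05. It lay at -0.19, -0.02, 2.05 and 0.32 in siXist clones, at 0.36, 1.80, 2.09 and 1.1 in siCont clones, and at 0.36, -0.25, -0.23 and -1.31 in IVF embryos. siCont clones and IVF embryos met at the same rounded value, 0.36, with no overlap beyond it. The difference was 1.70 ± 0.58 for siCont clones minus IVF (3.24-fold, adjusted p = 0.261) and 0.90 ± 0.58 for siXist clones minus IVF (adjusted p = 0.512), while other probes gave 1.08 and -0.65 for siCont clones minus IVF. Cycs, cytochrome c, Diablo, which binds and disarms inhibitors of apoptosis, and Birc5 (survivin), which serves cell division as well as survival, had differences between -0.35 and 0.40. Xiap, an X-linked caspase inhibitor, lay at -1.17, -0.40, -0.23 and 0.54 in siXist clones, at -0.11, -0.49, -3.90 and 1.27 in siCont clones, and at -1.94, 1.14, -0.04 and 1.46 in IVF embryos. The IVF females (1.14 and 1.46) were above the IVF males (-1.94 and -0.04), and the clones, all male, lay across both. Its differences were -0.96 ± 0.97 for siCont clones minus IVF, or 0.07 without siCont clone 3, and -0.47 ± 0.97 for siXist clones minus IVF, or 0.01 without IVF embryo 3. Dimmer Xiap probes gave 0.41 and -2.02 for siCont clones minus IVF, and 0.57 and 0.69 for siXist clones minus IVF. The dimmest was above background on 1 siCont array.

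Of the caspases, Casp8 of the death receptor route and Casp1, which processes interleukins, were too dim to test (above background on 1 and 2 of 12 arrays). Casp2, activated by a p53-induced complex, gave 0.56 ± 0.43, -0.14 ± 0.43 and -0.71 ± 0.43 for siCont minus IVF, siXist minus IVF and siXist minus siCont. Casp6, an executioner caspase that cleaves lamins, lay at 4.96, 3.43, 3.66 and 4.71 in siXist clones, at 5.28, 4.78, 5.72 and 2.94 in siCont clones, and at 5.37, 5.48, 5.07 and 4.66 in IVF embryos. Its classes overlapped, with a difference of -0.96 ± 0.62 for siXist clones minus IVF (adjusted p = 0.512). Casp9, which the apoptosome activates, lay at 1.18, 1.64, 0.83 and 0.74 in siXist clones, at -0.61, 1.77, -7.55 and 2.56 in siCont clones, and at 1.37, 2.97, 2.43 and 0.81 in IVF embryos. siCont clone 3 was not above background for Casp9. The difference of -2.85 ± 1.84 for siCont clones minus IVF (adjusted p = 0.528) was -0.66 without that clone.

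Genes with several probes did not always give 1 direction. Of 14 members with several kept probes, the probes had both signs in 7 for siCont clones minus IVF, in 8 for siXist clones minus IVF and in 6 for siXist minus siCont clones. Trp53, Aen, Apaf1, Mcl1, Bcl2l11 and Xiap are described above. A dimmer Cycs probe put siXist clones below siCont clones without overlap (-0.68, adjusted p = 0.434 over all probes).

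A further 68 genes of the pathway were listed by role, with earlier results of these data known. Of these, 58 could be tested, and limma called 0 of them in each comparison. They were measured on the same arrays as the members, so their counts are no independent repeat of those above. Of 22 further p53 targets tested, 17 had a positive difference in siCont clones against IVF embryos (median 0.52), beside 48.1% of all features (median -0.04). In siXist clones against IVF embryos 16 did (median 0.36), beside 38.3% of all features (median -0.23). In siXist against siCont clones 7 did (median -0.05), beside 39.8% of all features (median -0.21). Signs depend on the scaling, as above, and the further lists were not counted in the deposited table. At an unadjusted p under 0.05, 1 of the 22 was higher in siCont clones than in IVF embryos, beside 13.6% of all features in either direction. In siXist clones against IVF embryos 1 was higher and 1 lower, beside 13.9% of all features. Plk3, a stress-induced kinase, was the higher one in both, at 1.66 ± 0.70 in siCont clones (adjusted p = 0.339) and 1.64 ± 0.70 in siXist clones (adjusted p = 0.34); its siCont value was chosen after it was seen. Tigar, which restrains glycolysis, was the lower one in siXist clones at -0.99 ± 0.38 (adjusted p = 0.287). Against IVF embryos, counts of positive genes in siCont and siXist clones were 6 and 3 of 14 for p53 control. They were 2 and 2 of 8 for further caspases and death signalling (medians -1.59 and -0.68). For further inhibitors and mitochondrial factors they were 3 and 2 of 8, and for further Bcl2 family genes 2 and 3 of 6. In siXist clones against siCont clones these last lists had 5 of 8, 3 of 8 and 3 of 6, beside 39.8% of all features. In p53 control, 3 of 14 were positive there (median -0.33, against -0.21 for all features). Hipk2, a kinase that phosphorylates p53, had -0.93 ± 0.33 there (adjusted p = 0.304). Trp53bp1, a factor of double-strand break repair, had -0.93 ± 0.36 there (adjusted p = 0.322), Ppp1r13l (iASPP), an inhibitor of p53, -0.67 ± 0.27 (adjusted p = 0.327), and Atm, the kinase that signals such breaks, -1.15 ± 0.53 (adjusted p = 0.369). Against IVF embryos, Bnip3, a mitophagy receptor, had 1.05 ± 0.32 in siCont clones (adjusted p = 0.218), and Birc3, an inhibitor of apoptosis, -2.49 ± 0.80 in siXist clones (adjusted p = 0.221). Atm had -1.32 ± 0.53 in siXist clones against IVF embryos (adjusted p = 0.306), with no overlap. Tradd, an adaptor of tumour necrosis factor receptors, had -1.68 ± 0.55 in siCont clones (adjusted p = 0.251), with no overlap. Hipk2 had 0.97 ± 0.33 in siCont clones against IVF embryos (adjusted p = 0.257). Ripk1, a kinase of death signalling, was above background on 2 siCont and 4 IVF arrays, averaging -4.68 in siCont clones and 0.18 in IVF embryos (adjusted p = 0.299).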

How the data were processed

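RNA of single morulae was extracted with TRIzol, amplified in a pair of rounds and labelled with Cy3, per the labels' protocols. Per the file headers, the deposited intensity is the processed signal of Agilent Feature Extraction 10.5.1.1, background-subtracted and not normalised between arrays. The deposited flags (other) mark outlier spots and spots well above background. The authors also deposited log2 values, which match the log2 of that signal shifted by 1 constant for each array and centred by probe (found from the values); what the constant rests on is unknown. Its column medians were 0.01, 0.54, -0.18 and -0.22 for siXist clones 1 to 4, -0.05, -0.72, -1.62 and -0.12 for siCont clones and 0.56, -0.01, 0.75 and 0.32 for IVF embryos.

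Log2 signal minus the 75th percentile of the array was used, without outlier spots, averaging spots of a probe. Probes needed a signal marked above background on 3 or more of a class's 4 arrays (24840 passed), and the brightest kept probe represented a gene. Accessions were matched to RefSeq names, which named 65.3% of 41174 probes. limma 3.58.1 (R 4.3.3) was fitted to 12 arrays with 8 residual degrees of freedom, male and female IVF embryos weighing equally, and the test was two-sided at an adjusted p of 0.05. The 75th percentile of the signal ran from 507.1 to 1133.2 and 0 spots were saturated; the number of arrays limits the precision. The fit was tested on simulated data. Alternatives (26 settings) covered background, scaling, filters, probes, the samples used, sex, variance and leaving out each array. Where a group's probe was not above background, "at least" folds use the lowest signal above background on each array. All members may be named, and of the wider genes up to 4 per comparison with the smallest p; Plk3 for siCont clones minus IVF falls outside this. Lists without Fas or Bik, and the fit to probes without a filter, were chosen after seeing the data. The members and lists were chosen with earlier results of these data known.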

Additional observations from a re-analysis of the deposited data

Results flagged for a closer look

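Among 93 sets of 4 embryos (1 gene in 1 class), 5 held an embryo whose gap to the nearest other was larger, as a share of the range, than Dixon's critical value for 4 samples; chance alone marks about 1 in 20 such sets. Trp53 lay at -1.55 in IVF embryo 3, against -1.13 to -1.08 in the other IVF embryos, on its brighter probe. Mdm4 lay at 0.40 in siXist clone 1, against -0.84 to -0.68 in the other siXist clones. Phlda3 lay at 2.02 in siCont clone 1, against 3.06 to 3.17 in the other siCont clones. Fas lay at -4.69 in IVF embryo 3, the only IVF embryo in which it was above background, against -7.42 to -7.07 in the others. Diablo lay at 3.90 in IVF embryo 2, a female, against 4.41 to 4.43 in the others.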

How the results depend on the processing

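The count of members called was 0 in each comparison under 26 settings, except that siXist clones minus IVF gave 1 (Bak1) when kept probes were averaged (difference 2.51, adjusted p = 0.0214) and 1 when every kept probe was tested on its own. Without 1 array at a time the counts ran from 0 to 0. For the dimmer Bak1 probe, singled out after seeing the data, siXist clones minus IVF gave adjusted p from 0.00115 to 0.0449 and differences from 1.43 (normexp) to 5.29 over 23 settings. These repeat 1 comparison on the same embryos and are no independent support. Replicate numbers shared between classes did not pair the embryos (correlations of deviations from -0.15 to 0.06). With the replicate number as a block, 0 members were called, and calls over all features dropped to 12 (siCont minus IVF), 13 (siXist minus IVF) and 0 (siXist minus siCont), against 79, 110 and 2. For siXist minus siCont clones the deposited table reversed Trp53 (0.38), Mdm4 (0.01), Aen (0.28) and Bcl2l2 (0.06), where its array constants moved the median of all features from -0.21 to 0.93. The mean of kept probes reversed Trp53 (0.11) and Aen (0.41), whose probes have opposite signs. Of 2481 recomputed differences 145 changed sign, 40 of them in the deposited table. Calls over all features ranged from 33 to 110 for siCont minus IVF without the block, from 34 to 232 for siXist minus IVF (232 with array weights), and from 0 to 56 for siXist minus siCont (56 without siXist clone 1). Normexp left 29 members testable, and without IVF embryo 3 Bcl2l11 and Cycs could not be fitted. Dim probes limit Bad, Hrk, Casp1, Casp8, Fas and Bik.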
